A study of Sus scrofa with 6 samples.

Results

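The cytosolic ribosomal proteins are the protein parts of the ribosome that translates messenger RNA in the cytoplasm. Their genes were taken by symbol from the deposited expression table: RPL or RPS followed by a number, with the lettered and paralog forms, together with RPSA, RPLP0, RPLP1 and RPLP2. The rule used no measured value, and it found 81 of the 17109 genes, 49 of the large subunit and 32 of the small subunit. The libraries were made from the livers of 3 ASGR1+/- pigs (S04, S05 and S03) and 3 WT pigs (WT1, WT2 and WT3), all of Bama minipig background and fasted overnight, with 1 RNA library per animal. The ASGR1+/- pigs carried 1 allele with a CRISPR/Cas9 deletion in ASGR1, which encodes the major subunit of the hepatocyte asialoglycoprotein receptor. The allele was made in edited fibroblasts and brought into pigs by nuclear transfer, and it is absent from the WT pigs. The study's methods give an age range for its experiments, with pigs of the same experiment at most 1 week apart. They give no age for each pig. The study describes the pigs it generated as male with a single exception, a female. S03 was left out of the study's comparison after its principal-component analysis, so S04 and S05 are set against WT first here and S03 is shown apart.

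Each ribosome carries one set of these proteins around its ribosomal RNA, and the large subunit forms the peptide bond while the small subunit reads the messenger RNA. Messenger RNAs of ribosomal proteins are abundant, short and translated under the control of the growth kinase mTORC1 through a pyrimidine tract at their start. The liver exports large amounts of plasma protein and holds many ribosomes, and its ribosome content is known to fall on fasting and to recover with food.

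Levels per length are given in TPM (the deposited unit, divided by transcript length and scaled to one sum in every library), and levels of a gene across libraries also in CPM (estimated counts scaled to library size and by the TMM factors of edgeR, which correct for a few abundant transcripts taking up a library). Of the 81 genes, 77 had over 100 TPM in every library. The remaining 4 were the paralogs RPL3L, RPL7L1, RPL22L1 and RPL26L1. The genes lie on 17 chromosomes of Sscrofa11.1, with 12 on chromosome 6 and 10 on chromosome 1, so they do not share a locus. They are short, with a median effective length of 367 bases against 2748 over all genes tested. Ribosomal protein genes have many processed copies in mammalian genomes, and the deposited estimates for 9 of them (RPL7A, RPL7L1, RPL14, RPL35A, RPL36A, RPL39, RPS2, RPS21 and RPS25) were not whole numbers, so the split of reads among copies is uncertain for these.

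The libraries held 15397768 (S03) to 16237732 (WT3) estimated counts. For ASGR1 itself edgeR gave a log2 fold change (S04 and S05 against WT) of -0.18, with a standard error (SE) of 0.20 and an adjusted p of 0.652, and counts over the whole gene can miss a deletion of part of it. S03 stood apart from the other 5 libraries, with 45.3 CPM from genes of chromosome Y, against 436 to 469 CPM in all others, and with 797 CPM of 6 erythroid markers. Those markers summed to 3.37 and 18.0 CPM in S04 and S05, against 84.2 to 247 CPM in WT. The labels give no sex for any library, so whether S03 came from the single female pig of the study is not stated. The 12 hepatocyte markers, none of them at 0, summed to 63626, 72526 and 75105 CPM in S04, S05 and S03, against 87802 to 209413 in WT. Albumin is 1 of these 12 markers and weighed heavily in their sum. It took 0.919%, 1.27% and 3.26% of the counts in S04, S05 and S03, against 3.57%, 9.31% and 9.81% in WT1 to WT3. Of these 12, 8 were below an unadjusted p of 0.05 in edgeR, 7 of them lower and 1 higher in S04 and S05, where 20.9% of all genes tested were below that p. Neutrophil markers summed to 14.8 to 17.9 CPM in the 3 ASGR1+/- livers, against 6.54 to 8.99 in WT, and macrophage markers to 1420 to 2071 CPM, against 2076 to 3195. Lymphocyte markers summed to 76.7, 58.2 and 117 CPM in S04, S05 and S03, against 83.6 to 192 in WT. Without S03, 1 of the 10 tested passed as lower (edgeR adjusted p = 0.0149), where 77 of all 13401 genes tested did. Endothelial markers summed to 275, 380 and 839 CPM in S04, S05 and S03, against 424 to 529 in WT, cholangiocyte markers to 30.3, 35.3 and 20.1 CPM, against 14.8 to 25.8, and stellate markers to 506, 354 and 1173 CPM, against 437 to 1090. The part of these markers in the ribosomal protein values was not tested. In bulk tissue, fewer cells of a type and less RNA per cell cannot be told apart.

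The first question was whether the ribosomal protein transcripts as a whole took another share of liver RNA in ASGR1+/- pigs. Summed over the 81 genes, they held 88677, 86617 and 93230 TPM in S04, S05 and S03, against 77947, 72369 and 72117 in WT1 to WT3. Every ASGR1+/- library was above every WT library on this scale. The mean was 87647 ± 1457 TPM in S04 and S05 (SD, n = 2) and 74144 ± 3296 TPM in WT (SD, n = 3), a log2 ratio of 0.24, and with S03 among the ASGR1+/- livers the ratio was 0.27. In CPM with TMM the same genes summed to 24328, 23646 and 23119 in S04, S05 and S03, against 19696, 21375 and 24598 in WT1 to WT3. On this scale the groups overlapped, since WT3 was the highest of all 6 livers and WT1 the lowest. The means were 23987 ± 482 CPM in S04 and S05 and 21890 ± 2491 CPM in WT (SD, n = 2 and 3), and the log2 ratio was 0.13.

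**Figure D1:**
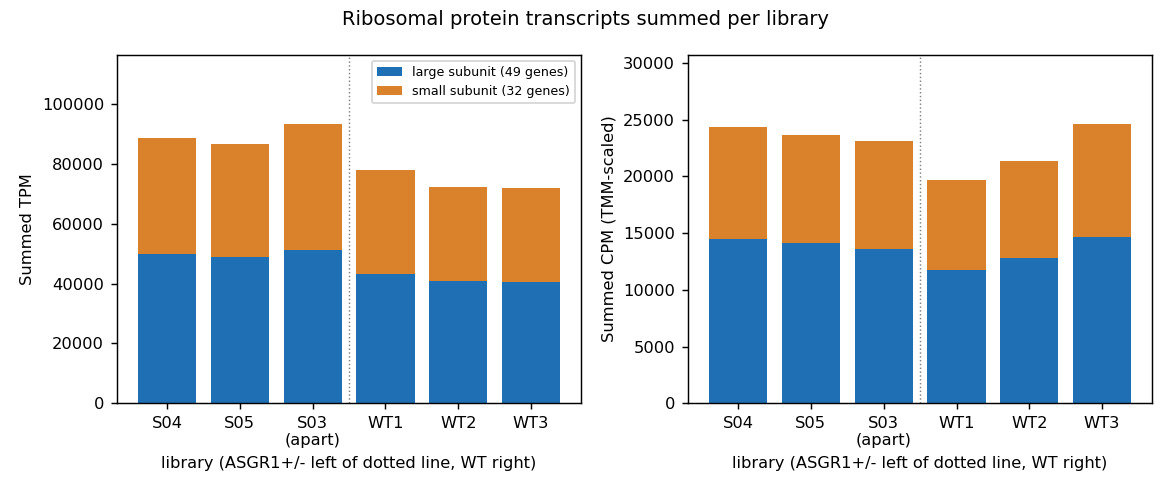
Summed TPM (left) and summed CPM with TMM scaling (right) of the 81 ribosomal protein genes, with 1 bar per library, the large subunit at the bottom of each bar and the small subunit on top. In TPM the ASGR1+/- livers lie at 86617 to 93230 and the WT livers at 72117 to 77947, while in CPM the range of 23119 to 24328 in ASGR1+/- livers falls inside the WT range of 19696 to 24598.

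The share taken by albumin differed as well. Albumin took 0.693%, 1.01% and 2.50% of the TPM in S04, S05 and S03, against 2.79%, 7.47% and 7.39% in WT1 to WT3. With albumin left out and TPM rescaled, the ribosomal protein genes held 89296, 87498 and 95617 TPM in S04, S05 and S03, against 80185, 78209 and 77875 in WT1 to WT3. The ASGR1+/- libraries were still all above WT, and the log2 ratio of S04 and S05 to WT was 0.17. The 20 most abundant genes that are no ribosomal protein genes, albumin among them, overlapped between the genotypes, with 26.1%, 29.6% and 21.1% of the counts in S04, S05 and S03, against 21.0%, 26.4% and 29.5% in WT1 to WT3. With these 20 left out of the TPM, the log2 ratio was 0.28. Both rescalings were chosen after the values were seen.

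Large and small subunit genes kept nearly the same proportion in both genotypes. The large subunit genes summed to 49860, 48997 and 51072 TPM in S04, S05 and S03, against 43287, 40835 and 40650 in WT1 to WT3. For the small subunit the sums were 38817, 37620 and 42158 TPM in S04, S05 and S03, against 34660, 31534 and 31467 in WT1 to WT3. The ratio of large to small was 1.28, 1.30 and 1.21 in S04, S05 and S03, against 1.25, 1.29 and 1.29 in WT1 to WT3. Its means of 1.29 ± 0.013 in S04 and S05 and 1.28 ± 0.026 in WT (SD, n = 2 and 3) differed by less than the spread between WT livers. S03 had the lowest ratio of the 6 livers, in TPM as in CPM, where it was 1.42 in S03, 1.48 ± 0.012 in S04 and S05 and 1.48 ± 0.015 in WT.

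Gene by gene, edgeR with its quasi-likelihood test was run over all genes, and a gene passed at an adjusted p of 0.05 or less. All 81 genes were abundant enough to be tested, and none passed, where 0.791% of the 13401 genes tested did. At an unadjusted p under 0.05 there were 3 of 81 in either direction, RPL26L1 and RPS27 higher in S04 and S05 and RPL3L lower, where 20.9% of all genes tested were below that p. With all 6 libraries none passed either, against 0.136% of 13243 genes, and RPL22L1 joined RPL3L among the lower genes at an unadjusted p under 0.05, beside the same 2 higher genes (background 6.67% higher and 9.45% lower). The smallest adjusted p of any ribosomal protein gene was 0.113 without S03 and 0.117 with it, both from edgeR and both for RPL3L. DESeq2, the tool of the study, called RPL3L lower without S03 (adjusted p = 0.0248), where it called 6.30% of all genes lower. With S03 it called RPL3L lower (adjusted p = 0.00965, background 3.91%) and RPS27 higher (adjusted p = 0.0442, background 1.73%).

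The fitted changes were small and close together. Their median over the 81 genes was 0.11 on the log2 scale, against 0.003 over all genes tested, with quartiles of 0.053 and 0.20 against -0.36 and 0.29. A positive value was seen in 70 of 81 genes, where 50.2% of all genes had one. Only RPL3L moved by 1 or more in size, 3 genes moved by 0.5 or more, and 71 stayed under 0.3. Without the 5 paralogs the values ran from -0.20 (RPS29) to 0.45 (RPL12), and the standard errors of these 76 genes were 0.16 to 0.24, larger than most of the values. With S03 the median was also 0.11, again with 70 positive values (background 52.4%). The median was 0.13 for the large and 0.088 for the small subunit without S03, and 0.11 and 0.10 with it.

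**Figure D2:**
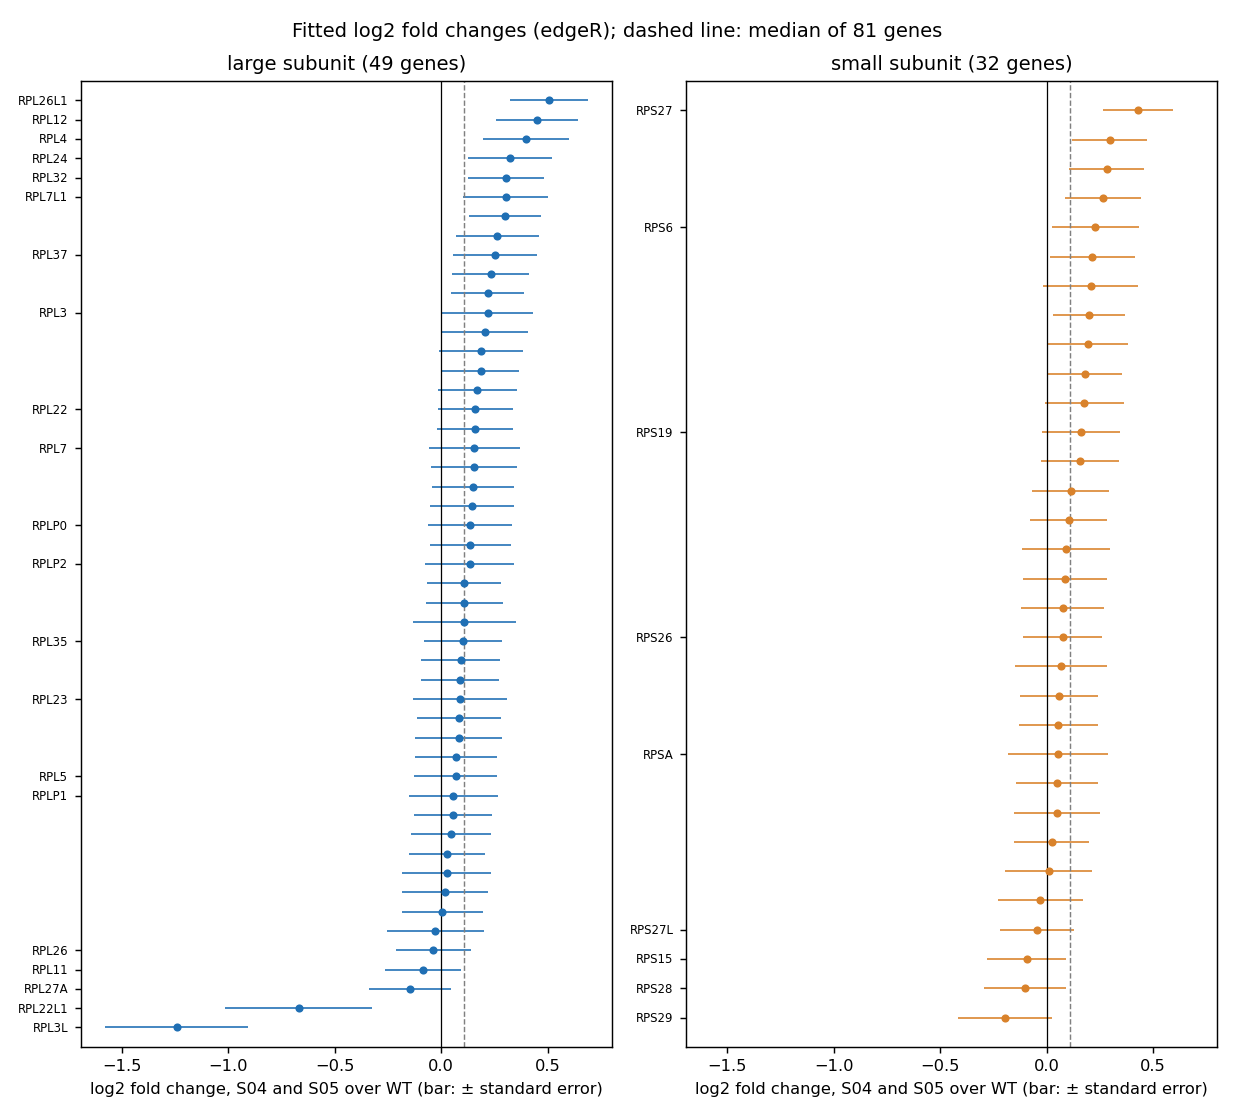
Fitted edgeR log2 fold change (S04 and S05 over WT) for each of the 49 large subunit genes (left) and 32 small subunit genes (right), with bars of ± 1 standard error the median of 0.11 as a dashed line and symbols at the 30 genes chosen for naming. Apart from RPL3L at -1.24 and RPL22L1 at -0.67 the points run from -0.20 to 0.51 in a narrow band, and no gene passed the test.

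Scaling and single livers set how far the median lay from 0. With library totals in place of TMM the ribosomal protein median was 0.22 and that of all genes 0.11, a distance of 0.12. There 77 genes were positive, but 70 lay above the median of all genes, the same count as with TMM. The distance was 0.10 with TMM. On log2(TPM + 1) with limma the ribosomal protein median was 0.24, which is 0.16 above that of all genes. An offset for gene length brought it to 0.044, with 56 of 81 genes positive. Without WT1 the TMM median was 0.045 with 53 positive values, and without WT3 it was 0.21 with 74.

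Whether the groups separated also turned on the scale. In TPM, 67 of 81 genes lay above every WT library in both S04 and S05, where 23.1% of all genes did, and 2 lay below (background 14.4%). Of the 67, 40 were large and 27 small subunit genes. With TPM rescaled without albumin, 55 lay above, where 19.0% of all genes did, and 3 below (18.0%), the third of them RPL11. With TMM-scaled CPM, 17 lay above every WT library, where 19.0% of all genes did, and 2 below, where 20.1% did. The 17 thus stand at about the background share, with 9 of the large and 8 of the small subunit. With S03 added, 62 lay above in TPM (background 17.3%) and 12 in CPM (9.89%), and 2 below on each scale (6.57% and 11.9%). The 2 genes below were RPL3L and RPL22L1 throughout.

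The WT livers differed from one another as much as from the ASGR1+/- livers in CPM. WT1 was the lowest of the 6 livers for 63 of 81 genes, while WT3 was the highest for 29 and S04 for 25. Relative to the WT mean of each gene, the median log2 deviation was 0.15, 0.078 and 0.10 in S04, S05 and S03, against -0.15, -0.014 and 0.17 in WT1 to WT3. In TPM the order was another one. There S03 was the highest liver for 54 genes, and the lowest was WT2 for 38 and WT3 for 33. Median deviations in TPM were 0.23, 0.22 and 0.31 in S04, S05 and S03, against 0.073, -0.039 and -0.032 in WT1 to WT3.

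**Figure D3:**
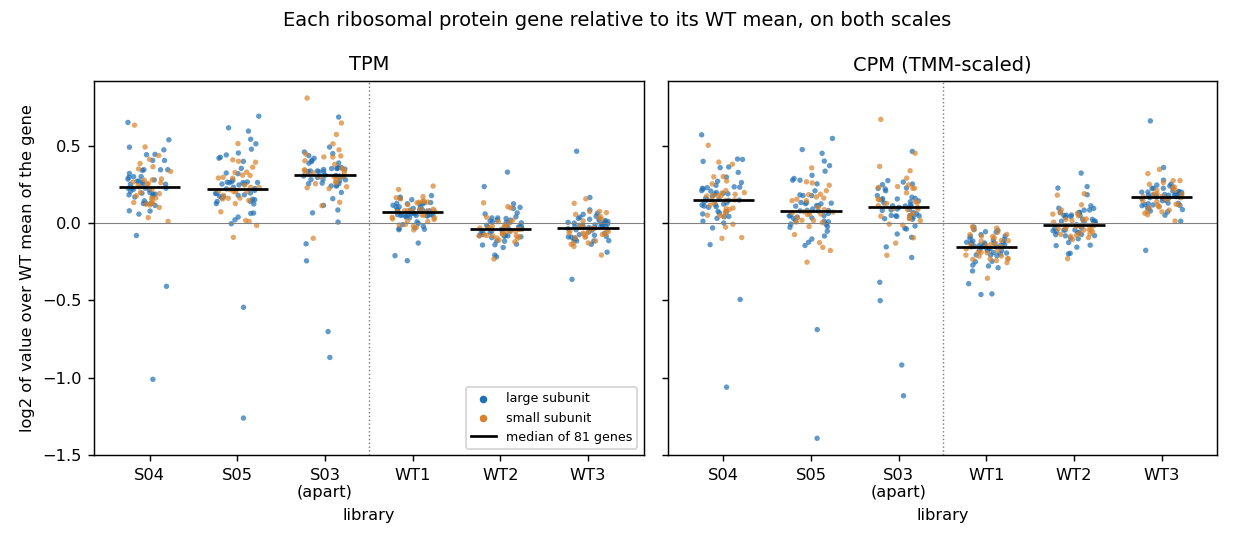
Log2 of each gene's value in a library over its WT mean, in TPM (left) and in CPM with TMM scaling (right), with 1 point per ribosomal protein gene in each library, the subunits in 2 colours and the median as a black line. In TPM the medians of the ASGR1+/- livers (0.22 to 0.31) lie above all WT medians, and in CPM WT3 at 0.17 lies above S04 at 0.15.

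The stalk of the large subunit, built on RPLP0 with RPLP1 and RPLP2, recruits the translation factors that split GTP, and RPL12 sits at its base. RPLP0 had 637, 621 and 614 CPM in S04, S05 and S03, against 516, 558 and 644 in WT1 to WT3. RPLP1 had 318, 302 and 303 CPM in S04, S05 and S03, against 244, 305 and 344 in WT1 to WT3. RPLP2 had 172, 153 and 155 CPM in S04, S05 and S03, against 118, 166 and 160.0 in WT1 to WT3. In all 3 genes the ASGR1+/- values fell inside the WT range except for RPLP2 in S04, and the log2 fold changes were 0.14, 0.06 and 0.13, with standard errors of 0.20 to 0.21. RPL12 departed from them. It had 282 CPM in S04 and 320.1 in S05, above every WT liver, but 197 in S03, below every one, against 199, 210.0 and 252 in WT1 to WT3. Its log2 fold change of 0.45 (SE 0.19, edgeR adjusted p = 0.243) was the highest of the core genes without S03 and was 0.27 (adjusted p = 0.599) with it.

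RPL5 and RPL11 bind the 5S ribosomal RNA, and when they are free of the ribosome they bind MDM2, the ligase that degrades p53. RPL5 had 433, 417 and 435 CPM in S04, S05 and S03, against 396, 362 and 458 in WT1 to WT3. RPL11 had 121, 113 and 133 CPM in S04, S05 and S03, against 110.1, 123 and 140.0 in WT1 to WT3. Both genes overlapped between the genotypes, with log2 fold changes of 0.07 (SE 0.19) and -0.08 (SE 0.18).

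Around the tunnel through which the new chain leaves the large subunit lie RPL4, RPL17, RPL19, RPL22, RPL23A, RPL26, RPL31, RPL35 and RPL39. Of these 9, 8 had positive values in S04 and S05, and their median log2 fold change was 0.10. RPL4, which reaches into the tunnel wall, had 784, 777 and 624 CPM in S04, S05 and S03, against 565, 533 and 678 in WT1 to WT3. S04 and S05 were above every WT liver and S03 was inside their range, and the log2 fold change was 0.40 (SE 0.20, edgeR adjusted p = 0.315). RPL35, at the rim of the exit, had 202, 194 and 202 CPM in S04, S05 and S03, against 159.8, 195 and 199 in WT1 to WT3, with a log2 fold change of 0.10. RPL26 was at 221 ± 14.5 CPM in S04 and S05 (SD, n = 2) and 227 ± 15.8 in WT (SD, n = 3).

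RPL24 and RPL32 also stood clear of WT in S04 and S05. RPL24, which reaches across to the small subunit, had 269 and 259.9 CPM in S04 and S05, against 186, 201 and 248 in WT1 to WT3, and S03 was inside that range at 207. RPL32 had 275, 268 and 264 CPM in S04, S05 and S03, against 211, 204 and 245 in WT1 to WT3. It was above every WT liver in all 3 ASGR1+/- livers. The log2 fold changes were 0.32 (SE 0.20) for RPL24 and 0.30 (SE 0.18) for RPL32. RPL27A was at the other end, with 679, 677 and 763 CPM in S04, S05 and S03, against 678, 799 and 775 in WT1 to WT3, a value of -0.15 (SE 0.19).

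In the small subunit RPS27 had the highest value. This zinc-finger protein had 177, 160.2 and 199 CPM in S04, S05 and S03, against 119, 131 and 126 in WT1 to WT3. All ASGR1+/- livers lay clear of all WT livers, and the same held in TPM, with 2348, 2162 and 2651 in S04, S05 and S03, against 1787, 1483 and 1312 in WT1 to WT3. The log2 fold change was 0.43 without S03 (SE 0.16, edgeR adjusted p = 0.202) and 0.51 with it (SE 0.16, edgeR adjusted p = 0.185). It was 0.31 with the offset for gene length.

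RPS6, the substrate of the S6 kinases that act below mTORC1, had 625, 649.7 and 551 CPM in S04, S05 and S03, against 498, 502 and 632 in WT1 to WT3. S04 and S03 were inside the WT range and S05 above it, and the log2 fold change was 0.23 (SE 0.20, edgeR adjusted p = 0.567). RPS19, needed for maturation of the small subunit and mutated in Diamond-Blackfan anemia in humans, had 368, 363 and 381 CPM in S04, S05 and S03, against 295, 341 and 346 in WT1 to WT3. It stood above all WT livers in all ASGR1+/- livers, by little, with a log2 fold change of 0.16 (SE 0.18). RPSA, which is also known as a laminin receptor precursor, had 508, 470.2 and 424 CPM in S04, S05 and S03, against 429, 396 and 591 in WT1 to WT3, with a log2 fold change of 0.05 (SE 0.23).

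The lowest values of the small subunit were those of RPS29, RPS28 and RPS15. RPS29 had 136, 122 and 172 CPM in S04, S05 and S03, against 114, 166 and 164 in WT1 to WT3, a log2 fold change of -0.20 (SE 0.22) without S03. RPS28 had 122, 111 and 159.6 CPM in S04, S05 and S03, against 105, 129 and 141 in WT1 to WT3. RPS15 had 98.3, 99.6 and 108 CPM in S04, S05 and S03, against 89.4, 119 and 109 in WT1 to WT3. S03 was above every WT liver for RPS28 and RPS29, and S04 and S05 lay inside the WT range for all 3 genes. The values of -0.10 for RPS28 and -0.09 for RPS15 turned positive with library totals and in TPM.

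Per length, the 3 small subunit transcripts most abundant in WT were RPS28, RPS29 and RPS26. RPS28 averaged 2807 ± 164 TPM in S04 and S05 and 2680.2 ± 232 TPM in WT (SD, n = 2 and 3). RPS29 averaged 2009 ± 125 TPM in S04 and S05 and 2051 ± 122 TPM in WT, and RPS26 averaged 2205 ± 114 TPM in S04 and S05 and 1912 ± 154 TPM in WT. For RPS28 and RPS29, S04 and S05 overlapped with WT in TPM. RPS26 had 2285, 2124 and 2353 TPM in S04, S05 and S03, above the 2088, 1800.0 and 1848 in WT1 to WT3. In CPM RPS26 overlapped, with 268, 242 and 264 in S04, S05 and S03, against 219, 238 and 270.3 in WT1 to WT3. RPS27, with 2255 ± 132 TPM in S04 and S05 and 1527 ± 240.5 TPM in WT, stood next after RPS28 in S04 and S05 and next after RPS26 in WT. In the large subunit the 3 were RPL37, with 2639 ± 377 TPM in S04 and S05 and 2006 ± 158 TPM in WT, RPL23, with 2059.7 ± 199 TPM in S04 and S05 and 1763 ± 35.8 TPM in WT, and RPL35, with 1819.8 ± 17.7 TPM in S04 and S05 and 1542 ± 89.2 TPM in WT. RPL37 had 2906, 2373 and 2619 TPM in S04, S05 and S03, against 2179, 1968 and 1870.5 in WT1 to WT3. In CPM it overlapped, since S05 at 175 was below WT3 at 179. TPM of the shortest genes also depends on the effective length used for each library. For RPS28 this was 56.2, 59.3 and 68.7 bases in S04, S05 and S03, against 52.1, 67.3 and 62.8 in WT1 to WT3.

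There were 5 paralogs of core genes, and the largest departures were among them. RPL3L, the form of RPL3 known from heart and skeletal muscle, lies on chromosome 3 from 40004907 to 40016702 (gene ID 100622679), beside RPS2. It had 2.88, 2.29 and 2.77 CPM in S04, S05 and S03, against 4.58, 7.53 and 6.32 in WT1 to WT3. The estimated counts behind these values were 47, 37 and 49 in S04, S05 and S03, against 77, 109 and 88 in WT1 to WT3. All ASGR1+/- livers were below all WT livers, with a log2 fold change of -1.24 without S03 (SE 0.34, edgeR adjusted p = 0.113) and -1.21 with it (SE 0.29, edgeR adjusted p = 0.117). The call by DESeq2 without S03 was lost when S04, S05, WT2 or WT3 was left out (adjusted p = 0.116 to 0.414 from DESeq2) and held without WT1 (0.0435). RPL3 itself, near the peptidyl transferase centre, had 595, 735 and 436 CPM in S04, S05 and S03, against 512, 551 and 653 in WT1 to WT3. S05 was above every WT liver and S03 below every one, and the log2 fold change was 0.22 (SE 0.21).

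RPL22L1 had 17.2, 15.1 and 12.9 CPM in S04, S05 and S03, against 17.6, 21.2 and 38.4 in WT1 to WT3. The groups did not overlap, but S04 lay just under WT1, and WT3 was far above the others. Its log2 fold change was -0.67 without S03 (SE 0.34, edgeR adjusted p = 0.322) and -0.77 with it (SE 0.30, edgeR adjusted p = 0.269). Without WT3 these were -0.26 and -0.36. RPL22, whose protein binds RNA and has RPL22L1 as its counterpart, had 145, 119 and 137 CPM in S04, S05 and S03, against 111, 117 and 126 in WT1 to WT3, with a log2 fold change of 0.16 (SE 0.17).

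RPL26L1 (chromosome 16, 51267492 to 51276692) had 20.7, 19.1 and 19.2 CPM in S04, S05 and S03, against 13.2, 13.1 and 15.9 in WT1 to WT3. All ASGR1+/- livers were above all WT livers, with a log2 fold change of 0.51 without S03 (SE 0.18, edgeR adjusted p = 0.185) and 0.49 with it (SE 0.16, edgeR adjusted p = 0.206). Its core gene RPL26 had -0.04 (SE 0.18). RPL7L1, related to a yeast factor of large subunit assembly, had 81.9, 104 and 52.8 CPM in S04, S05 and S03, against 72.4, 87.5 and 66.2 in WT1 to WT3. S03 lay below every WT liver and S05 above every one, and the log2 fold change was 0.30 (SE 0.20) without S03 and 0.08 (SE 0.26) with it. RPL7 had 0.16 (SE 0.21). RPS27L had 44.2, 39.2 and 40.1 CPM in S04, S05 and S03, against 36.9, 46.5 and 45.8 in WT1 to WT3, inside the WT range, where RPS27 was above it.

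**Figure D4:**
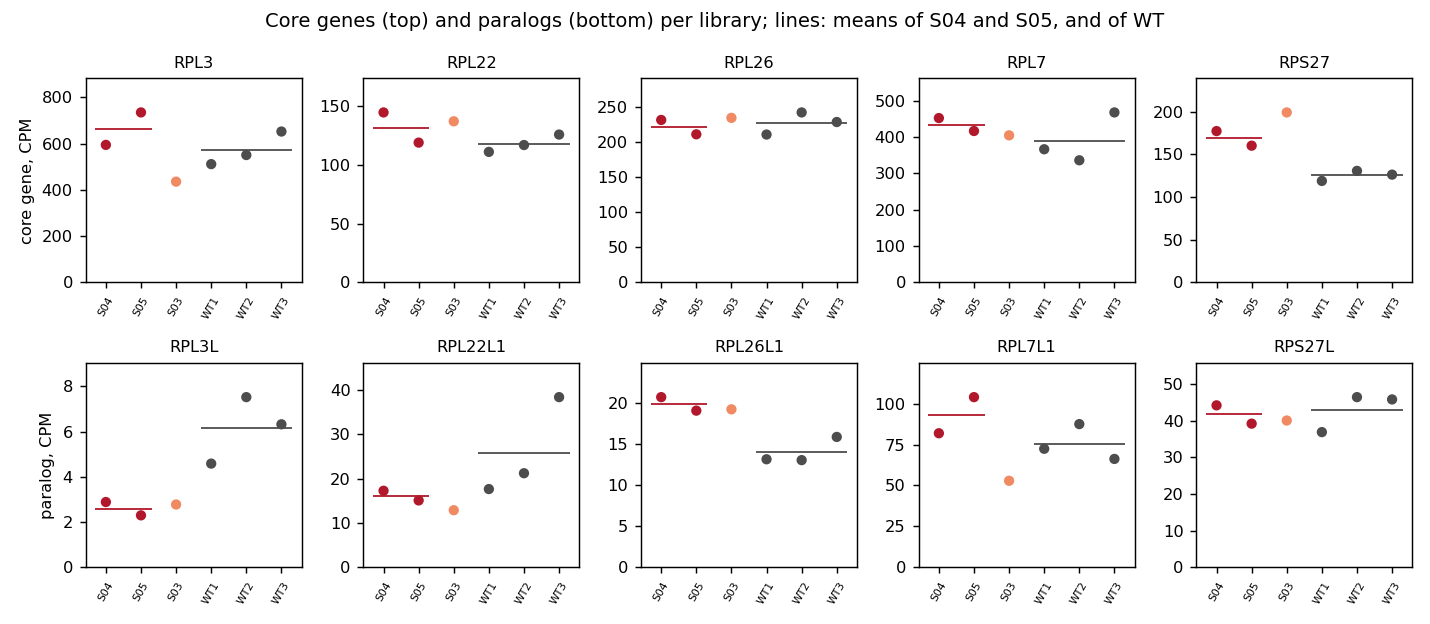
CPM with TMM scaling of 5 core genes (top) and their paralogs (bottom), with 1 point per library, S04, S05 and S03 left of WT1, WT2 and WT3, and lines at the means of S04 and S05 and of WT. RPL3L lies at 2.29 to 2.88 in ASGR1+/- livers and 4.58 to 7.53 in WT livers, and RPL26L1 at 19.1 to 20.7 and 13.1 to 15.9.

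S03 was unlike S04 and S05 for a few genes. In CPM it lay inside the WT range for 50 of 81 genes, above every WT liver for 25 and below every one for 6, which were RPL3, RPL3L, RPL7L1, RPL10A, RPL12 and RPL22L1. S04 and S05 were below every WT liver too for RPL3L and RPL22L1. For RPL10A, S03 had 223 CPM, with 301 in S04 and 329 in S05, against 237, 246 and 304 in WT1 to WT3. In TPM, S03 was above every WT liver for 72 genes. The share of all genes in these positions was not computed for S03 alone. These counts therefore cannot be read as particular to the ribosomal protein genes. RPL10A was picked after its values were seen.

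Some ribosomal proteins are filed under other symbols. FAU, whose product is cut from a fusion with a ubiquitin-like protein, had a log2 fold change of -0.12 (SE 0.18) without S03 and -0.10 with it. RACK1, a scaffold on the small subunit, had 0.06 (SE 0.22) without S03 and -0.033 with it, and RPL36AL had 0.007 (SE 0.16) and -0.06. FAU had 266, 254 and 270.0 CPM in S04, S05 and S03, against 264, 309 and 274 in WT1 to WT3.

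Genes that build the ribosome, proteins of the mitochondrial ribosome and translation factors were read beside the ribosomal proteins. None of the genes in these lists passed with edgeR in either comparison. Of 99 ribosome biogenesis genes, 52 were higher in S04 and S05 at an unadjusted p under 0.05, where 8.89% of all genes tested were, and 1 was lower, TAF1A of the polymerase I machinery (log2 fold change -1.02, edgeR adjusted p = 0.0681). Their median log2 fold change was 0.52, with 93 positive values, and with S03 it was 0.35 with 21 genes higher and 1 lower (background 6.67% and 9.45%). DESeq2 called 14 of them higher and 1 lower without S03 (background 3.26% and 6.30%), and 2 higher and 1 lower with it (1.73% and 3.91%). S05 carried more of this than S04. The 99 genes summed to 2558, 3627 and 2562 TPM in S04, S05 and S03, against 2223, 2237 and 2047 in WT1 to WT3. The median was 0.30 when S05 was left out and 0.68 when S04 was left out. The count of higher genes was smaller without WT1, at 27, and without WT2, at 30, with medians of 0.50 and 0.51. Over all genes, 2330 without WT1 and 2012 without WT2 were below that edgeR p in either direction, against 2801 with both kept. RRP12, an export factor of ribosomal subunits, had 8.84, 19.0 and 7.39 TPM in S04, S05 and S03, against 5.43, 6.27 and 4.06 in WT1 to WT3 (log2 fold change 1.30, SE 0.31, edgeR adjusted p = 0.0876). RRP9, which binds the U3 small nucleolar RNA, had 24.2, 54.5 and 23.5 TPM in S04, S05 and S03, against 15.0, 13.5 and 17.7 in WT1 to WT3, a log2 fold change of 1.22. For both genes S05 was far above the other livers.

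Of 76 mitochondrial ribosomal protein genes, whose products form the separate ribosome of the mitochondrion, 14 were higher and none lower in S04 and S05 at an unadjusted p under 0.05 (background 8.89% higher), and the median log2 fold change was 0.20. With S03 there were 6 higher genes, near the background of 6.67%, and the median was 0.088, against 0.11 for the cytosolic ribosomal proteins. MRPL42 had 90.2, 120.2 and 69.5 TPM in S04, S05 and S03, against 59.8, 53.2 and 60.7 in WT1 to WT3, a log2 fold change of 0.74 (edgeR adjusted p = 0.116), and it was the list's single call by DESeq2 without S03 (adjusted p = 0.0414), 1 of 76 where 3.26% of all genes were called higher. MRPL11 had a log2 fold change of 0.69. Of 40 initiation genes, 4 were higher at an unadjusted p under 0.05 (EIF2S1, EIF2S2, EIF3J and EIF5B), close to the background of 8.89%. The median was 0.33 without S03 and 0.23 with it, and leaving out S05 brought it to 0.15, against 0.42 without S04. EIF4EBP1, the mTORC1 substrate that holds back cap-dependent initiation, had 23.6, 37.9 and 15.9 CPM in S04, S05 and S03, against 17.5, 23.2 and 21.8 in WT1 to WT3 (log2 fold change 0.56, SE 0.25, edgeR adjusted p = 0.253, and 0.31 with S03). PABPC4, a poly(A)-binding protein, had 98.9, 186 and 102 CPM in S04, S05 and S03, against 104, 93.8 and 94.5 in WT1 to WT3 (log2 fold change 0.55, SE 0.27, edgeR adjusted p = 0.306). In both genes S05 alone was far above WT, and these 2 had the largest values of the list. Of 10 genes tested in the elongation list, 1 was higher (background 8.89%). This was EEF1E1, a part of the tRNA synthetase complex rather than an elongation factor, despite its symbol. It had 22.6, 25.0 and 17.7 TPM in S04, S05 and S03, against 13.2, 12.9 and 11.7 in WT1 to WT3 (log2 fold change 0.81, adjusted p = 0.0927 from edgeR and 0.0182 from DESeq2). The median of the elongation list was 0.26. Differences between the lists and the ribosomal protein genes were not tested.

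**Figure D5:**
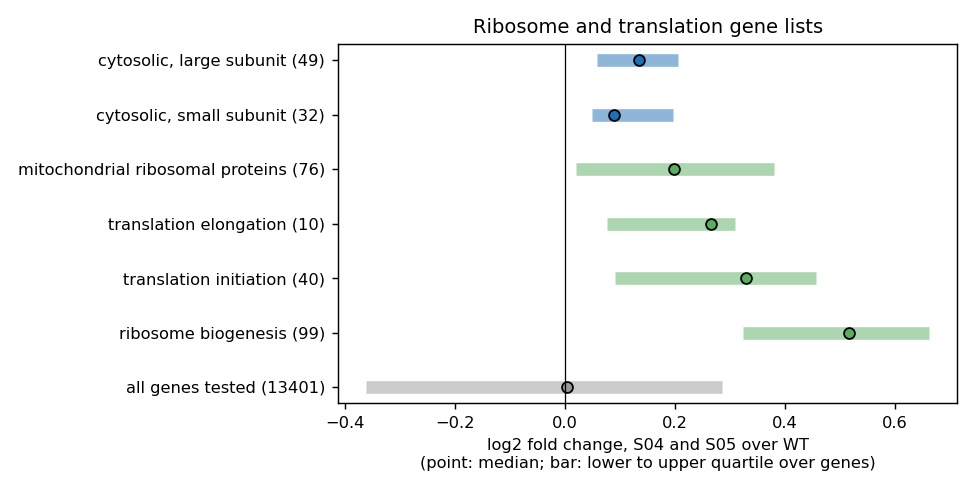
Fitted edgeR log2 fold changes (S04 and S05 over WT) for 6 gene lists and for all 13401 genes tested, with the median as a point, the span from lower to upper quartile as a bar and the number of genes in brackets. The cytosolic ribosomal proteins have medians of 0.13 (large subunit) and 0.088 (small subunit), the mitochondrial ribosomal proteins 0.20 and the ribosome biogenesis genes 0.52.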

How the data were processed

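Total RNA from 6 livers was sequenced by the study on the BGISEQ platform, trimmed with SOAPnuke and aligned with HISAT2 2.0.4 and Bowtie2 to Sscrofa11.1. The deposited table holds estimated counts per gene, not normalized, made with a tool not given in the sources used here. The authors also deposited FPKM (per length and per fragment total) and TPM (scaled to a fixed sum per library). All 81 ribosomal protein genes had the same gene ID and symbol in the RefSeq annotation.

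Estimated counts were rounded (12.0% of all values were not whole) and tested with edgeR 4.0.16 in R 4.3.3: the quasi-likelihood test, TMM scaling, filterByExpr (minimum count 10) and Benjamini-Hochberg adjustment over all genes tested. Standard errors were taken as the absolute log2 fold change divided by the root of the F statistic. CPM are counts scaled to library size and TMM factors, computed once over the 6 libraries. Effective length was recovered from deposited counts and FPKM. DESeq2 1.42.0 and limma 3.58.1, the second on log2(TPM + 1) with a pseudocount of 1 or as voom, were alternatives, as were other scalings, no filter, a length offset and leaving out each library. The fits were tested on simulated data.

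Each animal is 1 sample, and with so few the spread between animals limits the precision. For genes with few counts, such as RPL3L with 37 to 109 estimated counts per library, depth can limit it as well. Members, gene lists and roles were chosen with earlier results of these data known. Genes named were those with the 6 highest and 6 lowest log2 fold changes. Named as well were the 3 of each subunit with the highest mean TPM in WT, members with textbook roles, and paralogs with their core genes. From each other list the 2 largest changes were named. Exceptions are marked, and some items are not reported here. The authors' group averages were not used.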

Additional observations from a re-analysis of the deposited data

How the results depend on the processing

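No ribosomal protein gene passed with edgeR under any scaling, filter or left-out library, with or without S03, nor with limma. DESeq2 passed 1 without S03 and 2 with it. The number of all genes that passed without S03 was 106 with edgeR, 1307 with DESeq2 and 183 with limma on log2(TPM + 1), and 0 to 115 when a library was left out (0 without S05, 2 without S04, 5 without WT2 and 53 without WT1). The median log2 fold change of ribosomal protein genes without S03 kept its sign in all alternatives, at 0.045 to 0.21 over left-out libraries. It ran from 0.063 to 0.21 for the large and from 0.037 to 0.20 for the small subunit. With all 6 libraries it was 0.11, and 0.022 to 0.21 over left-out libraries, 0.28 with library totals and 0.26 with limma on log2(TPM + 1), scales on which the median of all genes was 0.18 and 0.13. The log2 ratio of summed TPM was 0.24, and 0.13 for summed CPM with TMM, 0.17 for TPM rescaled without albumin and 0.22 to 0.28 over left-out libraries. Of 810 values of the 30 named ribosomal protein genes under alternatives, 62 had another sign than the value reported, all in genes that did not pass, and 3 had another call (RPL3L with DESeq2 in both comparisons and RPS27 with DESeq2 and S03). The causes were not tested. No paired analysis was made, because the groups are separate animals and no matching between them is given. Standard errors near 0.2 mean that changes as small as the ribosomal protein median cannot be told from 0 for a single gene with these livers.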
